A study of Homo sapiens with 8 samples.

Results

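The interaction of OTX015 and panobinostat in NCH644 cells is, for each gene, the part of the response to both drugs that was not the sum of the responses to each drug alone. It was computed on the log2 scale as the mean level under both drugs, minus the mean under OTX015, minus the mean under panobinostat, plus the mean under DMSO. All 8 of the 8 arrays of the study entered it, as 4 groups of 2 taken from the array titles, and it was tested for 22458 genes. NCH644 is an established human line of stem-like glioblastoma cells that is kept as floating neurospheres. The groups had DMSO (the drug solvent), OTX015 at 5 µM, panobinostat at 5 µM, or OTX015 and panobinostat together at 5 µM each, and RNA was taken after 24 h in every group. All groups were this 1 cell line, at 1 dose of each drug and 1 time. The growth protocol names a single medium, MG-43, while the extraction protocol speaks of more than 1 medium; no label ties a medium to a group, so the groups are taken to differ in drug alone, and a difference in medium between them was not tested. The study calls the duplicates biological without saying how they were separated, so p-values measure the spread between these arrays, which may be technical in part.

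OTX015 blocks the bromodomains of BET proteins such as BRD2, which read acetylated histones and bring the transcription elongation machinery to active genes. Panobinostat inhibits histone deacetylases, so acetyl marks build up on histones and other proteins. One drug therefore adds to a mark whose readers the other drug occupies, and genes controlled by both processes are where a departure from additivity can be looked for. On the log2 scale, additivity means that the fold changes of the single drugs multiply.

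Values are log2 levels made with RMA, a standard summary of Affymetrix probe sets, and carry no absolute unit. Duplicates correlated at r of 0.9903 to 0.993 across genes, and array medians lay between 3.87 and 4. The 12 markers of stem-like glioma cells were above background in all 4 groups. None of 39 markers of microglia, endothelium, pericytes and fibroblasts, or lymphocytes was called for the interaction, and 1 had an unadjusted p under 0.05, but only 12 of the 39 were above background in all 4 groups, so the others say little. Olfactory receptor genes, which these cells are not known to use, served to fix a background: 95% of the group means of 374 such genes lay under 3.07.

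A departure from additivity was called for 3086 of 22458 genes (13.7%) at adjusted p under 0.05 in limma. The combination lay above the additive level for 1419 genes (6.32%) and below it for 1667 (7.42%). Among the 12790 genes whose 4 group means were above background, 2657 were called (20.8%), 1155 higher (9.03%) and 1502 lower (11.7%). These shares are the background against which each gene list below is read. The smallest departure called was 0.60, the median size was 1.07 in either direction, and the median of all genes was 0.0613. The number of arrays limits the precision: the count fell to 1883 and 1631 without OTX015 array 1 or 2, to 1686 and 1793 without panobinostat array 1 or 2, and to 1852 without combination array 1. Without any 1 of the other arrays it was 2169 to 2546. In bulk RNA, a loss of some of the cells and a lower level of RNA per cell cannot be told apart.

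A minority of the genes that OTX015 changed alone were also called when it was added to panobinostat. OTX015 changed 3697 genes against DMSO (16.5%; 7.97% higher, 8.49% lower), and adding it to panobinostat changed 2342 (10.4%; 4.33% higher, 6.1% lower). These contrasts share no array. Their genes overlapped by 776, which is 21% of the OTX015 set and 33.1% of the other, and 445 of the 776 moved the same way and 331 the opposite way. Across 22458 genes, which are not independent replicates, the correlation of the effects was 0.0696, and it ranged from 0.0374 to 0.0942 with 1 array left out. The genes OTX015 raised had a median change of 0.749 alone and -0.0789 beside panobinostat, and those it lowered had -0.815 and -0.134. The 3697 genes became 1963 and 1885 without OTX015 array 1 or 2 and 2391 without DMSO array 2. The 2342 genes became 566 to 1039 when 1 of the panobinostat or combination arrays was left out.

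The effect of panobinostat was carried over to a larger extent. It changed 8360 genes against DMSO (37.2%; 19.4% higher, 17.9% lower) and 6734 on top of OTX015 (30.0%; 15.3% higher, 14.7% lower), again in contrasts with no shared array. Of these, 4792 were in both sets, 57.3% and 71.2% of each, with 4527 in the same direction and 265 in the opposite one, and the correlation across genes was 0.726 (0.699 to 0.724 with 1 array left out). The combination changed 8424 genes against DMSO (37.5%; 19.2% higher, 18.4% lower). The genes that panobinostat raised had a median change of 0.934 alone and 0.557 on top of OTX015, and those it lowered had -0.93 and -0.555.

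**Figure D1:**
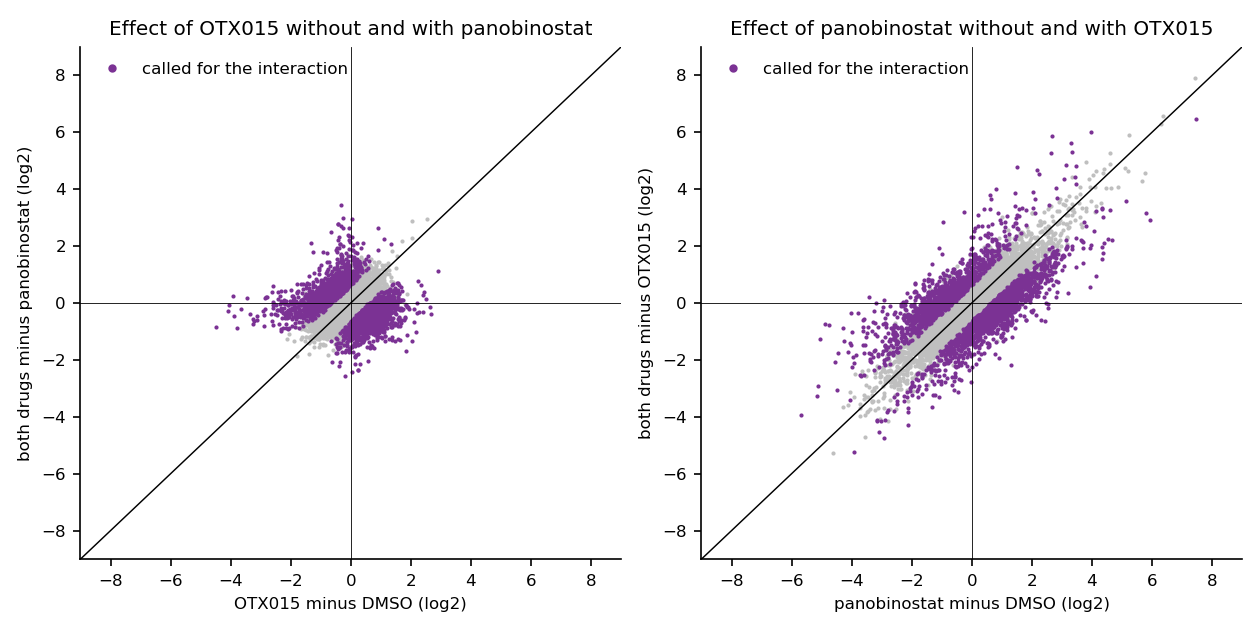
Each point is 1 of 22458 genes, with the log2 effect of a drug without the other drug on the horizontal axis and with it on the vertical axis; purple points were called for the interaction and the diagonal marks additivity. The OTX015 effects (left) form a cloud with a correlation of 0.0696, and the panobinostat effects (right) have a correlation of 0.726. Genes that panobinostat raised had a median of 0.934 without and 0.557 with OTX015, and those it lowered -0.93 and -0.555.

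Each called gene was also placed by whether a drug's effect was called alone, with the other drug, or in both settings. These classes are set by the same 8 arrays as the interaction and are descriptions. An effect that was not called is not shown to be absent. For OTX015, 1566 of the 3086 genes (50.7%) had a called effect only without panobinostat, and 775 (25.1%) had one only with it. Another 331 had called effects of opposite sign, 37 a smaller and 12 a larger effect of the same sign, and 365 had none called. For panobinostat, 1281 had a called effect only without OTX015, 562 kept a smaller one, 280 a larger one, 651 had one called only with OTX015, 265 reversed, and 47 had none called.

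**Figure D2:**
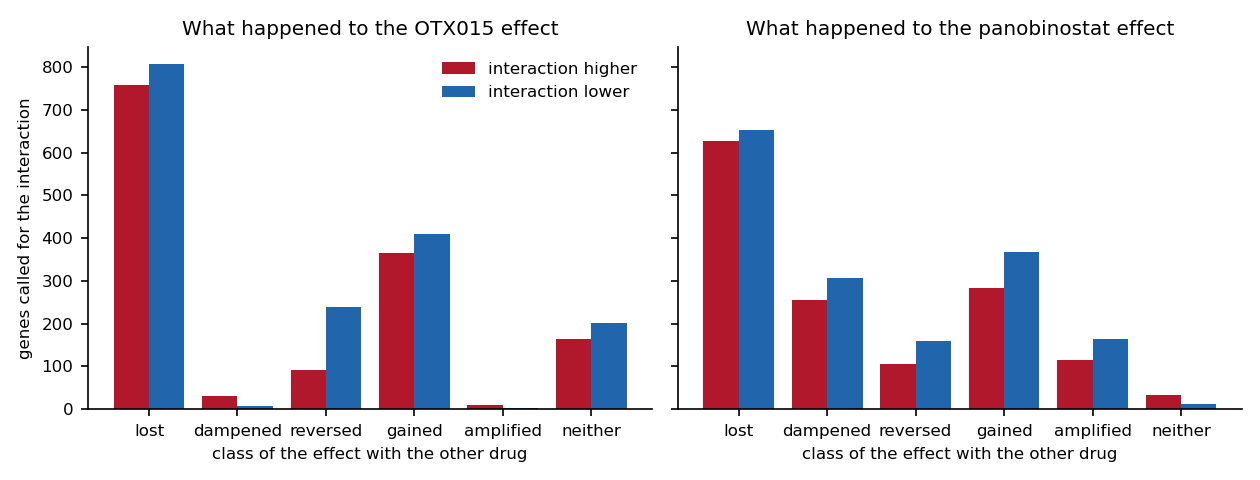
Bars count the called genes by what became of the OTX015 effect (left) or the panobinostat effect (right) when the other drug was present, split by the direction of the interaction. Loss, a call only without the other drug, was the most frequent class for both drugs, with 1566 and 1281 genes.

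A joint effect smaller than the sum was frequent among the called genes. Both drugs alone lowered 734 of the 1419 genes called higher, and both alone raised 780 of the 1667 called lower. In these genes the measured fold changes of the 2 drugs did not multiply in full. For 418 of the 1419 the additive level was under background, where an array cannot follow a further fall. How many of the 734 are among them is not given here. The single-drug changes and the interaction share the DMSO arrays, which enter them with opposite signs. Error in those arrays therefore favours this pattern, and its part was not tested. How many of all genes both drugs alone lowered or raised is not given here. In a smaller group the combination went past both single drugs, in the direction of the interaction, with 274 genes higher and 357 lower. Neither drug alone had a called effect on 122 and 108 of these. The combination arrays enter these comparisons and the interaction with the same sign, so their error favours this group too.

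Array background bears on the 2 directions unequally. For 418 of the 1419 genes called higher, the additive level was under 3.07, where an array cannot follow a further fall, and for 33 it was under 0.334, the lowest value in the table. For the genes called lower the same was true of 19. Only 4 had an additive level over 12.3, the highest value on the arrays. All 4 group means were above background for 1155 of the higher and 1502 of the lower genes. For a further 35 and 61 a group was under background, but the departure with values raised to background is a lower bound of its size. For the remaining 229 and 104 the size or direction depends on levels the arrays did not measure. On the linear scale, where changes add as amounts, 1418 of the 1419 and 1653 of the 1667 kept their sign. For a gene called higher that both drugs alone moved the same way, the linear sign is fixed by the log2 one. This holds for at least the 734 of the 1419 that both drugs alone lowered, so their kept sign adds no separate support.

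The NRF2 targets had the largest share of members called lower among the lists described here. NRF2 is the transcription factor that responds to oxidative stress by switching on enzymes of glutathione and thioredoxin metabolism, through antioxidant response elements in their promoters. Of 27 measured targets, 16 were called lower and 0 higher, with a median of -0.987 against 0.0613 for all genes, and 11 to 15 were called lower with 1 array left out. OTX015 alone raised 15 and lowered 1, panobinostat alone raised 10 and lowered 5, and the combination raised 8 and lowered 9 against DMSO. Added to panobinostat, OTX015 raised 0 and lowered 9.

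NQO1, a quinone reductase, read 9.89 and 9.55 with DMSO, 11.3 and 11.1 with OTX015, 7.69 and 7.51 with panobinostat, and 7.0 and 6.78 with both. The groups did not overlap, and OTX015, which raised NQO1 by 1.47 alone, lowered it by 0.71 beside panobinostat (interaction -2.18 ± 0.24 SE, adjusted p = 0.00166). TXNRD1, which reduces thioredoxin, read 8.81 and 8.63, 10.2 and 10, 9.71 and 9.67, and 8.86 and 8.98 in the same order. Each drug alone raised it above DMSO, and the combination had no called change from DMSO (0.20, adjusted p = 0.313), an interaction of -2.17 ± 0.19 (adjusted p = 0.00104). GSR, glutathione reductase, was also raised by each drug alone, and read 9.28 and 9.15 with DMSO, 10.3 and 10.2 with OTX015, 9.76 and 9.49 with panobinostat, and 8.48 and 8.41 with both, the lowest pair (-2.18 ± 0.20, adjusted p = 0.00104). SRXN1, which repairs oxidised peroxiredoxins, was raised by each drug and by both, to 9.88 and 9.77 from 6.91 and 6.82, but fell short of the additive level of 12.1 (-2.29 ± 0.23, adjusted p = 0.00133). SLC7A11, the cystine importer that feeds glutathione synthesis, rose by 0.90 with OTX015 and was 1.28 lower than DMSO under both (interaction -1.83 ± 0.24, adjusted p = 0.00292). HMOX1, haem oxygenase 1, had an interaction of -1.42 ± 0.30 (adjusted p = 0.0168), which was not called without DMSO array 2, OTX015 array 1 or 2, or panobinostat array 1, where the adjusted p reached 0.0638.

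The core of the antioxidant response element, TGACNNNGC, was searched on both strands in windows from 250 bases before to 50 after the start of each gene, in RefSeq promoters of build GRCh38.p14, using the first promoter listed for a gene. It was present for 14.6% of 16038 genes with such a window, for 5 of the 21 NRF2 targets with one, and for 3 of the 12 of them called lower. A match describes letters and is no evidence of binding. The 3 stretches below are shown because they hold the core, in capitals, beside genes called lower, all upstream of the start. GCLM codes for the regulatory subunit of the enzyme that starts glutathione synthesis, and PGD for an NADPH-producing enzyme of the pentose phosphate pathway. The GCLM stretch is chr1:93909431-93909490 on the minus strand, the PGD stretch chr1:10398837-10398896 on the plus strand and the TXNRD1 stretch chr12:104215654-104215713 on the plus strand, where GCLM and PGD hold the core in reverse complement.
GCLM: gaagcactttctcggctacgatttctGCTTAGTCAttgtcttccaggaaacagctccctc
PGD: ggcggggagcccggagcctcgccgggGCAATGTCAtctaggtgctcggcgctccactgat
TXNRD1: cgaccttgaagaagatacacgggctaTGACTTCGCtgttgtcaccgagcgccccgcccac
GCLM and PGD were picked for the core after their values were seen, with interactions of -1.74 ± 0.32 (adjusted p = 0.00964) and -1.0 ± 0.19 (adjusted p = 0.0116).

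ERK feedback genes, the phosphatases and adaptor proteins that ERK signalling induces and that then restrain it, were called lower for 8 of 20 and higher for 1. The count lower was 7 to 8 with 1 array left out. OTX015 alone raised 7 of them and lowered 2, whereas on top of panobinostat it raised 0 and lowered 9. DUSP6, a phosphatase of ERK itself, read 8.07 and 7.83 with DMSO, 10.2 and 9.90 with OTX015, 8.06 and 7.82 with panobinostat, and 7.29 and 7.29 with both. Panobinostat alone had no called effect on it (-0.01, adjusted p = 0.957), and the OTX015 rise of 2.10 became a fall of 0.65 in its presence (interaction -2.75 ± 0.23, adjusted p = 0.000886). DUSP4 (-2.28 ± 0.29), SPRY2 (-2.25 ± 0.27), PHLDA1 (-2.22 ± 0.20) and SPRED1 (-1.89 ± 0.17) showed the same reversal, with adjusted p of 0.00104 to 0.00269. In all 4 the combination was the lowest group, under both single drugs and DMSO. The gene called higher was DUSP7, another ERK phosphatase, named after its values were seen (1.10 ± 0.24, adjusted p = 0.0206), and with 1 array left out the higher count was 0 or 1.

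Targets of p53 and inhibitors of cyclin-dependent kinases were called lower more often than higher. Of 31 p53 targets, which serve cell-cycle arrest, repair and apoptosis, 12 were called lower and 2 higher (median -0.601). OTX015 alone raised 14, panobinostat 16 and the combination 14. The count lower was 7 to 10 with 1 array left out, and the total fell by more than 1.5 times without either OTX015 or either panobinostat array. CDKN1A, the CDK inhibitor p21, read 3.96 and 3.9 with DMSO, 6.14 and 6.10 with OTX015, 7.46 and 7.33 with panobinostat, and 7.49 and 7.28 with both. The combination overlapped panobinostat and lay under the additive level of 9.59 (interaction -2.21 ± 0.19, adjusted p = 0.000886). GADD45A, a growth-arrest gene, read 6.68 and 6.4, 8.14 and 8.0, 8.23 and 8.18, and 8.08 and 7.97 in that order, so that either drug or both gave nearly the same level (-1.71 ± 0.20, adjusted p = 0.00204). TP53INP1 (-1.88 ± 0.28), RRM2B (-1.59 ± 0.23) and ZMAT3 (-1.55 ± 0.20) were called whichever array was left out. Of 7 CDK inhibitors 4 were called lower, among them CDKN2B (-1.65 ± 0.24), and 1 higher, CDKN1C (0.87 ± 0.20), whose call was lost without any 1 of 7 arrays. The total of this list fell by more than 1.5 times without OTX015 array 1, combination array 1, or panobinostat array 1 or 2.

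Genes known to rise with histone deacetylase inhibitors, 19 measured, were called lower for 6 and higher for 2, and those known to rise with BET inhibitors, 13 measured, for 4 and 4. OTX015 alone raised 12 of the 19, panobinostat 15 and the combination 15. Without 1 array the totals were 4 to 6 and 5 to 7. The first fell by more than 1.5 times without DMSO array 1, an OTX015 array, a combination array or panobinostat array 1, and the second moved as much without DMSO array 2, an OTX015 array or panobinostat array 1. TXNIP, which binds thioredoxin, stood at 7.80 and 7.87 with DMSO and between 9.26 and 9.84 on the 6 drug-treated arrays (-2.02 ± 0.22, adjusted p = 0.00166). H2BC5, a histone H2B gene, was raised by 2.89 and 3.08 by the single drugs and by 4.21 by both, short of their sum on the log2 scale (-1.77 ± 0.25, adjusted p = 0.00394). On the linear scale, where changes add as amounts, its departure had the opposite sign. SERPINI1, the serpin neuroserpin, was under background with DMSO at 2.23 and 2.54, so that its interaction was -1.92 or further below 0. H2AC6, a histone H2A gene, was among the 4 called higher in the second list (1.47 ± 0.23, adjusted p = 0.00571). Panobinostat alone lowered H2AC6 by 1.80, and OTX015 raised it by 1.03 beside panobinostat.

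**Figure D3:**
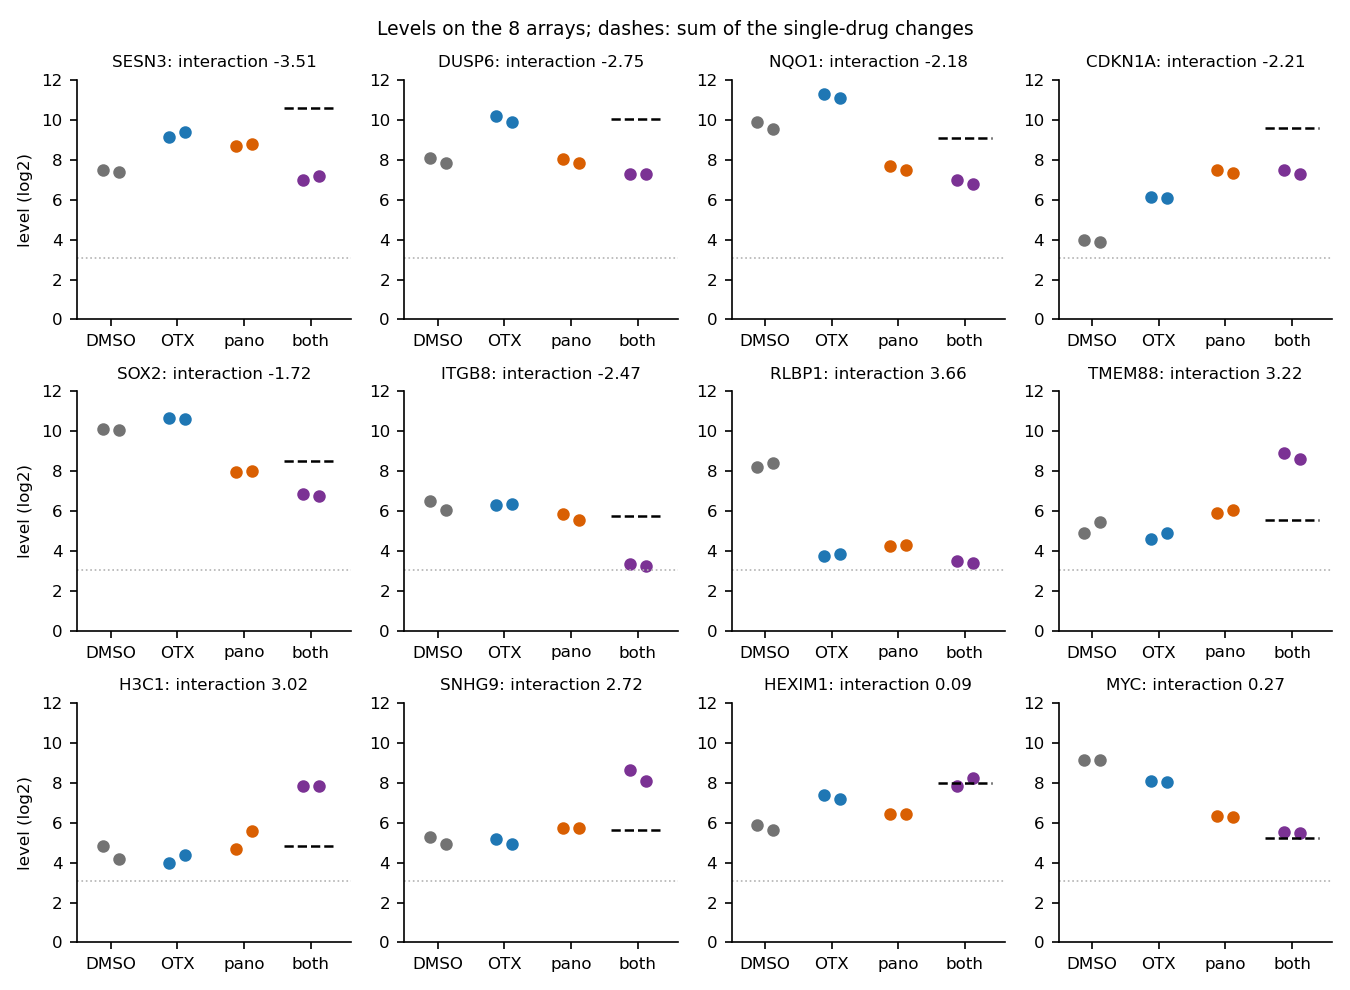
Points are the log2 levels of 12 genes on the 8 arrays, by group, the dashed bar is the level that the sum of the single-drug changes would give, and the dotted line is background at 3.07. The combination lies far under the bar for the genes with a negative interaction, above it for those with a positive one (for RLBP1 the bar, at -0.2, is under the axis), and close to it for HEXIM1 and MYC.

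Several genes known to respond to either drug were not called for the interaction. MYC, which BET inhibitors lower in many cancers, read 9.15 and 9.12 with DMSO, 8.08 and 8.04 with OTX015, 6.32 and 6.31 with panobinostat, and 5.53 and 5.49 with both. Each group lay apart from the others in that order, and the departure was 0.27 ± 0.16 (adjusted p = 0.333). HEXIM1, which holds the elongation factor P-TEFb inactive and rises with BET inhibition, went from 5.87 and 5.61 to 7.86 and 8.24 under both drugs, with a departure of 0.09 ± 0.24 (adjusted p = 0.859). The apoptosis inhibitor MCL1 (0.19 ± 0.20), the stress factor DDIT3 (0.29 ± 0.21), BRD2 itself (0.50 ± 0.18), cyclin D1 (CCND1, -0.32 ± 0.24), the lineage factor OLIG2 (-0.43 ± 0.21) and the immediate early factor FOS (-0.99 ± 0.39) were not called either, with adjusted p of 0.113 to 0.6. FOS and BRD2 are not shown to be additive by this, nor are the others. The pro-apoptotic BCL2L11 (-0.98 ± 0.24) and PMAIP1 (-1.15 ± 0.31) were called with all arrays. BCL2L11 was not called without DMSO array 2, OTX015 array 2, panobinostat array 2 or a combination array (adjusted p up to 0.103). PMAIP1 was not called without DMSO array 2, an OTX015 array, a combination array or panobinostat array 1 (up to 0.126).

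Lysosomal genes were called lower for 20 of 49 and higher for 0 (median -0.47), a count of 11 to 16 with 1 array left out. It fell by more than 1.5 times without an OTX015 array, a panobinostat array or combination array 2. OTX015 alone raised 20 of them and panobinostat 32, and the combination raised 27. LAMP2, a protein of the lysosomal membrane, read 7.49 and 7.21 with DMSO, 8.0 and 7.93 with OTX015, 8.47 and 8.4 with panobinostat, and 7.03 and 7.10 with both. Both drugs together gave the lowest pair, though not a called change from DMSO, and each drug alone raised it (-1.98 ± 0.19, adjusted p = 0.00125). The acid lipase LIPA (-1.41 ± 0.25), the fucosidase FUCA1 (-1.78 ± 0.18) and the proton pump subunits ATP6V1D (-1.40 ± 0.18) and ATP6V1C1 (-1.39 ± 0.20) were called whichever array was left out.

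Integrins and laminins, the receptors and matrix proteins by which cells attach, were called lower for 13 of 40 and higher for 1, with 8 to 11 lower when 1 array was left out. The total fell by more than 1.5 times without an OTX015 array, combination array 1 or panobinostat array 2. ITGB8, a partner of ITGAV in the activation of TGF-beta, read 6.53 and 6.06 with DMSO, 6.34 and 6.35 with OTX015, 5.88 and 5.56 with panobinostat, and 3.35 and 3.24 with both. The 6 arrays without the combination lay between 5.56 and 6.53, and the combination was 3.0 under DMSO (interaction -2.47 ± 0.26, adjusted p = 0.00147). ITGAV itself was raised by OTX015, lowered by panobinostat and lowest under both, at 5.6 and 5.95 from 7.93 and 8.08 (-2.22 ± 0.22, adjusted p = 0.00128). ITGB1 was of another kind, since each drug raised it, to 7.11 and 7.10 and to 7.13 and 7.22, and the combination at 5.73 and 6.10 was back at the DMSO level of 5.81 and 5.84 (-2.54 ± 0.21, adjusted p = 0.000886). ITGB3 (-2.56 ± 0.21) had no called difference between either drug and both, and ITGA7 (-1.78 ± 0.20) stayed under the level of panobinostat alone.

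Genes of glioma stem and progenitor cells were called lower for 12 of 35 and higher for 3. The shorter list of 12 glioma stem cell markers had 4 lower and 2 higher, and 3 to 6 called with 1 array left out, fewest by over 1.5 times without OTX015 array 2 or panobinostat array 1. The lower count of the 35 was 7 to 11 with 1 array left out, and the total moved by more than 1.5 times without an OTX015 or a panobinostat array. SOX2, a factor needed for self-renewal of neural stem cells, read 10.1 and 10.1 with DMSO, 10.7 and 10.6 with OTX015, 7.95 and 8.02 with panobinostat, and 6.85 and 6.78 with both. OTX015 raised it by 0.55 alone and lowered it by 1.17 beside panobinostat (interaction -1.72 ± 0.17, adjusted p = 0.00128). POU3F2, another neural progenitor factor, did the same, rising by 0.89 and falling by 0.71 (-1.61 ± 0.19, adjusted p = 0.0019). HES1, a target of Notch, was raised by either drug and had no called change under both (-1.57 ± 0.22, adjusted p = 0.0039). PROM1, the surface protein CD133, fell from 7.45 and 7.25 to 5.33 and 5.64 with OTX015, 4.57 and 4.33 with panobinostat, and 4.16 and 3.83 with both. Its additive level of 2.59 was under background, and its interaction was 1.41 ± 0.25 (adjusted p = 0.00911).

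Among the 12 genes called furthest below additivity, SESN3, a stress-induced protein that restrains mTORC1, read 7.48 and 7.38 with DMSO, 9.14 and 9.38 with OTX015, 8.71 and 8.80 with panobinostat, and 6.97 and 7.18 with both. Each drug raised it and the combination was the lowest pair, without a called change from DMSO, and 11.4-fold under the additive level (interaction -3.51 ± 0.20, adjusted p = 0.000442). LIFR, a cytokine receptor, showed the same order at 6.56 and 6.38, 8.01 and 7.91, 7.50 and 7.26, and 5.95 and 6.13 (-2.83 ± 0.20, adjusted p = 0.000725). ZNF217, a transcription factor, was raised by OTX015 and lowest under both, at 5.88 and 5.51 (-2.67 ± 0.28, adjusted p = 0.00147). In SEMA3C, a secreted guidance protein (-3.38 ± 0.20), SLC2A3, the glucose transporter GLUT3 (-3.19 ± 0.29), and KDM7A, a histone demethylase (-2.91 ± 0.25), the combination was above DMSO but below panobinostat alone. In CEMIP2, a hyaluronidase of the cell surface (-3.07 ± 0.21), FGD6, an activator of Cdc42 (-2.73 ± 0.18), and ROPN1L, a protein of the sperm tail (-2.76 ± 0.31), OTX015 raised the level by 2.40 to 2.67 alone and made no called difference beside panobinostat. The paraspeckle RNA NEAT1 was under background on both DMSO arrays, so its interaction was -2.27 or further below 0. TMT1B, a methyltransferase (-2.86 ± 0.30), and DUSP6 completed the 12. All 12 were called whichever array was left out, with adjusted p of at most 0.0186.

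The 12 genes furthest above additivity fell into 2 kinds. In RLBP1, NAV3, MLIP, NUPR1, NLGN3, CHI3L2 and PRRX1, each drug alone lowered the level steeply and the additive level lay under the background of 3.07. RLBP1, which carries retinaldehyde, read 8.20 and 8.42 with DMSO, 3.74 and 3.88 with OTX015, 4.28 and 4.32 with panobinostat, and 3.53 and 3.39 with both. The additive level of -0.2 was lower than any value in the table, so the interaction of 3.66 ± 0.19 (adjusted p = 0.000442) is a distance from a level outside the range of the arrays. The synaptic adhesion protein NLGN3 went from 7.67 and 7.46 to 4.71 and 4.79, 3.98 and 4.0, and 4.22 and 4.16, where the combination had no called difference from panobinostat (3.02 ± 0.18, adjusted p = 0.000442). Further genes of this kind, ITIH6, ATP10B, CA14, FRG2DP, ZHX2 and DCC, were below background in some groups, and the size of their departure was not settled.

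In the other 5, TMEM88, RPL3L, ENO3, MRPL11 and H3C1, the combination was the highest group. TMEM88, a membrane protein that dampens Wnt signalling, read 4.92 and 5.48 with DMSO, 4.61 and 4.91 with OTX015, 5.92 and 6.07 with panobinostat, and 8.93 and 8.62 with both. OTX015 had no called effect alone (-0.44, adjusted p = 0.216) and raised it by 2.78 beside panobinostat (interaction 3.22 ± 0.30, adjusted p = 0.00105). RPL3L, a muscle form of a ribosomal protein, went from 3.80 and 4.2 to 6.50 and 6.82 with panobinostat and 9.20 and 9.65 with both, while OTX015 alone gave 3.65 and 3.49 (3.2 ± 0.29, adjusted p = 0.00104). ENO3, the muscle enolase, was lowered by OTX015 alone, from 4.63 and 5.07 to 3.65 and 3.38, and reached 6.88 and 6.56 under both (3.46 ± 0.27, adjusted p = 0.000863). MRPL11, a protein of the mitochondrial ribosome, was lowered by each drug, to 5.41 and 5.47 and to 5.52 and 5.67 from 6.77 and 6.59, and raised by both, to 7.13 and 7.63 (3.03 ± 0.25, adjusted p = 0.000886).

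Histone genes were called higher for 13 of 59 and lower for 2, and for 7 and 1 with values raised to background. OTX015 added to panobinostat raised 18 and lowered 1, whereas OTX015 alone raised 10 and lowered 10. The higher count was 8 to 13 with 1 array left out, and the total fell by more than 1.5 times without either OTX015 array. H3C1, a histone H3 gene, read 4.82 and 4.18 with DMSO, 4.0 and 4.37 with OTX015, 4.68 and 5.59 with panobinostat, and 7.85 and 7.84 with both (3.02 ± 0.44, adjusted p = 0.00414). The 6 other arrays overlapped, and the combination stood above all of them. H4C1 fell to 3.84 and 3.92 with panobinostat from 5.77 and 4.91 with DMSO, and the combination at 5.96 and 5.65 overlapped DMSO (2.31 ± 0.36, adjusted p = 0.0052). The group means of H4C2 and H3C2 were under background except with both drugs, at 5.77 and 6.16 and at 4.32 and 5.03. Of the 59 genes, 26 were above background in all 4 groups, and probes for near-identical histone copies may not separate them.

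Host genes of small nucleolar RNAs, non-coding transcripts whose introns hold the guides for ribosomal RNA modification, were called higher for 11 of 26 and lower for 0 (median 0.667), with 8 to 10 higher when 1 array was left out. OTX015 alone lowered 12, panobinostat 15 and the combination 11. SNHG8 fell from 6.69 and 6.53 to 5.70 and 5.51 with OTX015 and 5.06 and 5.22 with panobinostat, and stood at 5.85 and 5.64 with both, above the panobinostat pair (1.61 ± 0.20, adjusted p = 0.00264). SNHG19 (1.43 ± 0.25, adjusted p = 0.00896) returned to the DMSO level under both, at 6.52 and 6.79 against 6.67 and 6.72. SNHG9 differed, since neither drug alone had a called effect and the combination read 8.66 and 8.07 against 4.92 to 5.72 on the other 6 arrays (2.72 ± 0.30, adjusted p = 0.00176).

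Ribosome biogenesis factors, which act in the nucleolus, were called higher for 12 of 44 and lower for 0 (median 0.422), but the count was 2 to 9 with 1 array left out, and fell by more than 1.5 times without any array other than DMSO array 2. OTX015 lowered 20 of them, panobinostat 28 and the combination 27. TCOF1, a cofactor of ribosomal RNA transcription, read 7.46 and 7.63 with DMSO, 6.47 and 6.10 with OTX015, 6.14 and 6.12 with panobinostat, and 6.92 and 6.82 with both (2.01 ± 0.22, adjusted p = 0.00166). The combination was nearer to DMSO than either drug alone. DKC1, the pseudouridine synthase, had 1.01 ± 0.17 (adjusted p = 0.0083).

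Among genes of lipid synthesis, those called with values as deposited lay above the additive level more often than below it. Of 14 genes of fatty acid synthesis 4 were called higher and 1 lower, and of 19 of sterol synthesis 5 and 2. With values raised to background the counts were 5 and 1 for fatty acid synthesis and 3 and 3 for sterol synthesis. Beside panobinostat, OTX015 raised 7 and 6 of them and lowered 0 of either list, while alone it raised 1 and 6. SREBF1, the factor that switches on fatty acid synthesis, read 7.35 and 7.64 with DMSO, 7.6 and 7.61 with OTX015, 8.15 and 8.41 with panobinostat, and 9.85 and 9.85 with both (1.46 ± 0.21, adjusted p = 0.00419). HMGCS1, an early enzyme of cholesterol synthesis, was raised by 0.81 by panobinostat and by 2.11 by both, with no called effect of OTX015 (1.40 ± 0.23, adjusted p = 0.00618). FASN, the fatty acid synthase, fell by 2.68 with panobinostat and by 1.32 with both (1.2 ± 0.23, adjusted p = 0.0119). The total for fatty acid synthesis was 3 without panobinostat array 1, and that for sterol synthesis was 1 to 5 with 1 array left out, lower by more than 1.5 times without any array other than DMSO array 2.

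**Figure D4:**
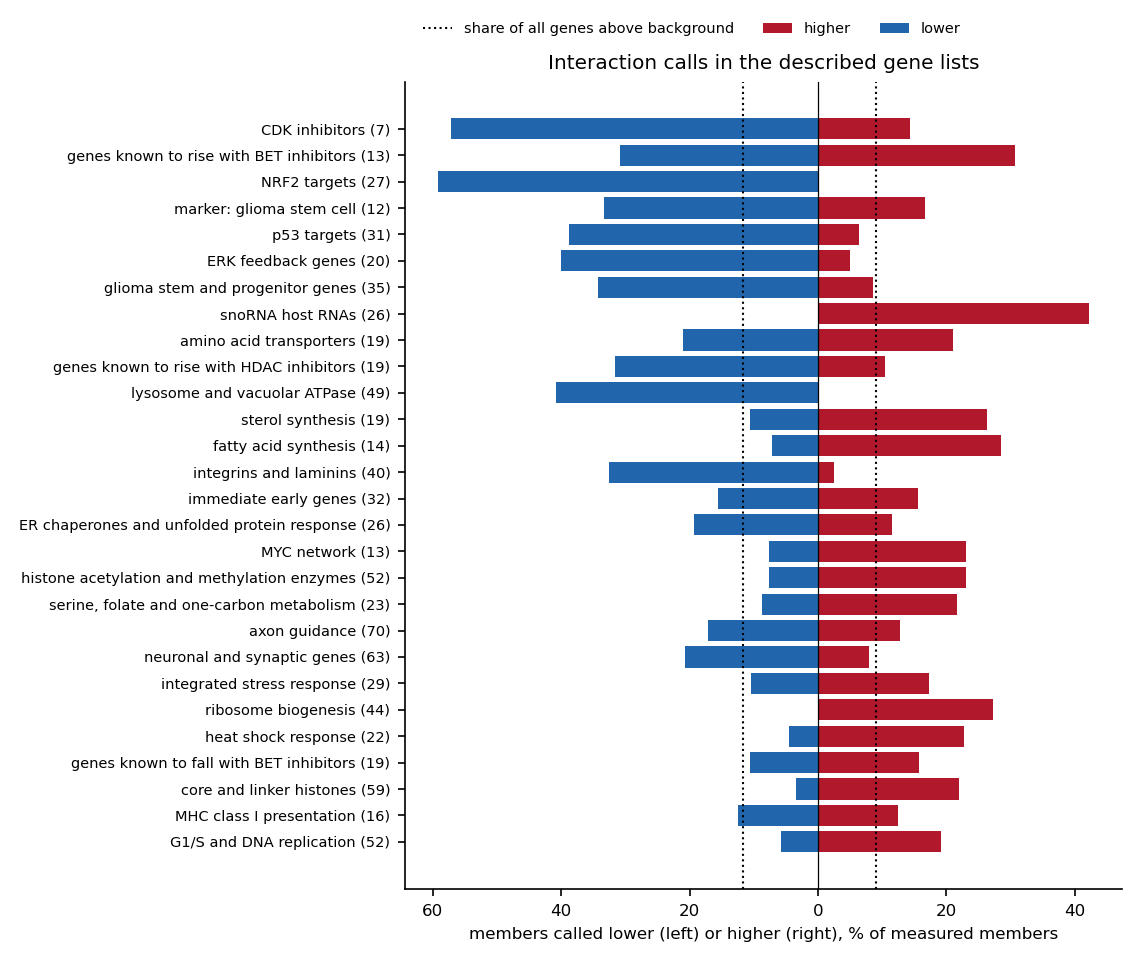
Bars give the share of each list's measured members, whose number is in brackets, called lower (left) or higher (right) for the interaction, and dotted lines mark 11.7% and 9.03%, the shares among all genes above background. NRF2 targets and lysosomal genes extend to the left alone, and snoRNA hosts and ribosome biogenesis to the right alone.

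Neuronal and synaptic genes were called lower for 13 of 63 and higher for 5, and axon guidance genes lower for 12 of 70 and higher for 9. The totals were 14 to 17 and 14 to 20 with 1 array left out. VGF, a secreted neuropeptide precursor, rose from 6.81 and 6.85 to 9.05 and 8.82 with OTX015, 11.3 and 11.2 with panobinostat, and 11.1 and 11 with both (-2.31 ± 0.18, adjusted p = 0.000863). Its additive level of 13.3 was above the highest value in the table, 12.3. ELAVL3, a neuronal RNA-binding protein, went the other way, with no called effect of OTX015 alone, 5.70 and 5.72 with panobinostat, and 8.17 and 8.01 with both (2.49 ± 0.29, adjusted p = 0.00189). SEMA3A, a repellent for axons, was lowered by 2.93 by panobinostat and by 5.14 by both, to 3.19 and 3.65 from 8.56 and 8.58 (-1.83 ± 0.27, adjusted p = 0.00439). On the linear scale the departure of SEMA3A had the opposite sign. SEMA4D (2.08 ± 0.27) was lowered by OTX015 alone and had no called difference between panobinostat and both, and PLXNB3, a semaphorin receptor (1.76 ± 0.22), had an additive level of 2.78, under background.

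Enzymes of histone acetylation and methylation, some of which remove marks, were called higher for 12 of 52 and lower for 4. The largest departure in size was that of KDM7A, called lower (-2.91 ± 0.25), and KDM1B was called lower too (-1.78 ± 0.19). KDM6B, which removes the repressive mark on lysine 27 of histone H3, read 7.02 and 7.17 with DMSO, 6.71 and 6.55 with OTX015, 7.59 and 7.18 with panobinostat, and 8.96 and 8.90 with both (2.01 ± 0.23, adjusted p = 0.00188). Neither drug alone had a called effect on it. SETD1A, a histone H3 methyltransferase (1.51 ± 0.18), was lowered by each drug and highest under both, and the acetyltransferase KAT2A (1.37 ± 0.17) had nearly the same level under either drug or both.

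Heat shock genes were called higher for 5 of 22 and lower for 1, with totals of 3 to 5 when 1 array was left out, lower by more than 1.5 times without DMSO array 2, OTX015 array 1, combination array 1 or panobinostat array 1. DNAJB1, a cochaperone of HSP70, rose from 7.6 and 7.48 to 9.16 and 8.91 with panobinostat and 10.9 and 11 with both, with 7.91 and 7.82 under OTX015 (1.59 ± 0.20, adjusted p = 0.00233). HSF1, which drives this response, was lowered by each drug and read 6.99 and 6.97 under both (1.03 ± 0.17, adjusted p = 0.00712). Among immediate early genes, called 5 higher and 5 lower of 32, ARC, a protein of synapses, gained a rise, from 8.23 and 7.92 with panobinostat to 9.42 and 9.52 with both (1.30 ± 0.22, adjusted p = 0.00767). EGR1, a transcription factor, stayed under an additive level of 13.2 that no array value reached (-2.36 ± 0.36, adjusted p = 0.0046), and the nuclear receptor NR4A1 was lowered by either drug or both (1.61 ± 0.19, adjusted p = 0.00199). The immediate early total was 4 to 6 with 1 array left out, lower by more than 1.5 times whichever array it was.

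The remaining lists with at least 25% of members called held members called in both directions, though not evenly in all of them. The integrated stress response had 5 higher and 3 lower of 29, with the kinase-like TRIB3, lowered by OTX015 alone and raised by panobinostat, at 1.66 ± 0.22. Endoplasmic reticulum genes had 3 and 5 of 26, with called departures from -2.15 as fitted to 1.47. The highest was that of the factor XBP1, at 1.47 ± 0.25. Serine, folate and one-carbon metabolism had 5 and 2 of 23, with the mitochondrial enzyme MTHFD1L at 1.81 ± 0.23. Amino acid transporters had 4 and 4 of 19, with the cationic transporter SLC7A2, lowest under both drugs, at -1.59 ± 0.20. The MYC network had 3 and 1 of 13, with the MYC antagonist MNT at 1.53 ± 0.27, and G1/S genes had 10 and 3 of 52, with the replication licensing factor CDT1 at 1.25 ± 0.19. MHC class I genes had 2 and 2 of 16, with B2M, the light chain, lowest under both at -1.09 ± 0.18. Genes known to fall with BET inhibitors had 3 and 2 of 19, with called departures from -1.03 to 1.19. The lowest was that of cyclin D2 (CCND2), at -1.03 ± 0.18, on which OTX015 alone had no called effect. The 8 genes named here were called whichever array was left out, but each list's total fell by more than 1.5 times without 2 or more of the arrays, panobinostat array 1 among them. With 1 array left out the totals were 4 to 7 for the stress response, 4 to 8 for the endoplasmic reticulum, 4 to 6 for one-carbon metabolism, 3 to 7 for amino acid transporters, 2 to 4 for the MYC network, 4 to 8 for G1/S, 2 to 4 for MHC class I and 1 to 4 for genes known to fall with BET inhibitors. Another 46 of the 74 lists had smaller shares, among them oxidative phosphorylation with 3 higher and 0 lower of 81, and G2/M and mitosis with 6 and 2 of 55, a list that panobinostat lowered for 54 members.

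Genes called lower were longer than those called higher, a comparison added after the data were seen. Among genes above background the median span in RefSeq was 25.3 kb, against 55.5 kb for the 1502 called lower and 18.4 kb for the 1155 called higher. The share called lower was 0.315% of genes up to 1 kb, 5.21% from 1 to 3 kb, 6.39% to 10 kb, 8.55% to 30 kb, 15.0% to 100 kb, 23.6% to 300 kb and 18.7% above. The share called higher was 12.4% from 3 to 10 kb and 7.05% from 100 to 300 kb. Over 100 kb it was 7.14%, and 3.59% to 5.13% with 1 array left out, and up to 10 kb it was 10.9%, and 5.49% to 8.91%. Both fell by more than 1.5 times without an OTX015 array, combination array 1 or a panobinostat array. Median levels differed between these bins too, at 4.71, 4.65, 5.41, 5.84, 6.26, 6.16 and 5.68 from the shortest to the longest, and the part of level in this pattern was not tested. Over 100 kb the share called lower was 22.7%, and 11.9% to 17.6% with 1 array left out, falling by more than 1.5 times without DMSO array 2, OTX015 array 2, combination array 1 or either panobinostat array. Up to 10 kb it was 5.06%, and 2.51% to 4.17% in the same way, falling as much without an OTX015 array, combination array 1 or a panobinostat array.

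**Figure D5:**
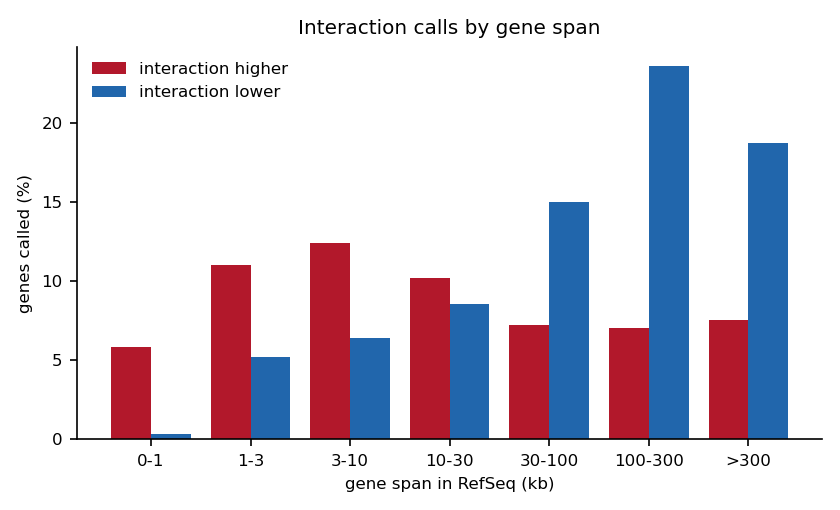
Bars give the share of genes above background called higher or lower for the interaction, by the span of the gene in RefSeq in kilobases. The share called lower reaches 23.6% between 100 and 300 kb and is 0.315% up to 1 kb, where the share called higher is 5.84%.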

How the data were processed

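RNA of NCH644 cells was labelled with biotin and measured on single-colour Affymetrix arrays, 8 in all, per the labels' protocols. For the array model and genome build, nothing is given in the sources used here. The deposited values are log2 levels; per the submitters' processing notes they came from RMA, with affy 1.36.1 and R 2.15.1 named. RMA brings the arrays to like distributions, so a change in total RNA per cell would not be seen, and levels near background or saturation are compressed.

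Of 23786 probe sets, the platform annotation gave 22458 exactly 1 symbol each, and 1328 stayed unnamed. All 8 arrays entered 1 limma fit (limma 3.58.1, R 4.3.3; lmFit and eBayes, two-sided, Benjamini-Hochberg over 22458 genes, called at adjusted p under 0.05, no filter on low values, 4 residual and 4.41 prior degrees of freedom). Errors are standard errors of that fit. In every leave-one-out fit 1 group had 1 array, which is assumed to vary like the others. On simulated data with 200 of 22458 genes changed, the interaction test recovered 28.7% of departures of size 1 and 97.7% of size 2, with 7.79% false calls. In the data 13.7% of genes were called, a larger share than was changed in the simulation, and the adjusted cutoff is then less strict. The simulated shares therefore do not give the sensitivity reached here.

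Gene spans and promoters came from RefSeq tables. Replicate numbers in the titles gave correlations of duplicate differences between groups of 0.0467 to 0.118, so the numbers were not taken as pairs. Genes were named by rule: the 12 highest and 12 lowest called departures among genes with 4 group means above background, or with a departure bounded by it (the additive level itself may lie under background), at most 5 of the called genes in any described list (at least 25% called, or a median of at least 0.5), the 4 largest of each class of effect with over 20 genes, and a set given whatever the result (MYC, HEXIM1, CDKN1A, DDIT3, SOX2, EGR1, FOS, HMOX1, CCND1, OLIG2, BRD2, MCL1, BCL2L11, PMAIP1). Uncharacterised loci, small RNAs and receptor gene segments were left out of the largest departures. This gave 173 genes, not all of which are described. The members and lists were chosen with earlier results of these data known. Alternatives were median centring, quantile normalization, leaving out the dimmest 25% of genes, all probe sets, array weights, robust moderation with a trend on intensity, a block on replicate number, values raised to background, other background levels, adjusted p under 0.01 and leaving out each array.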

Additional observations from a re-analysis of the deposited data

Results flagged for a closer look

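The effect of OTX015 differed by the interaction test with and without panobinostat for 1419 genes with a higher and 1667 with a lower interaction. Of the 1328 probe sets without a gene symbol, which the report does not use, 152 were called for the interaction, 63 higher and 89 lower.

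Some genes changed in opposite directions with a drug alone and beside the other drug. OTX015 raised SESN3 (interaction -3.51), SEMA3C (-3.38) and SLC2A3 (-3.19) alone and lowered them beside panobinostat, and it lowered ENO3 (3.46) alone and raised it there. Panobinostat raised SESN3 and CEMIP2 (-3.07) alone and lowered them beside OTX015, and it lowered MRPL11 (3.03) alone and raised it there. H3C2 (3.79 as fitted) was listed in this way too, but its levels were under background in all groups other than the combination. With values raised to the background level its interaction was 1.61.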

How the results depend on the processing

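The counts over all genes stayed within 1.5 times under median centring, quantile normalization, leaving out dim genes, all probe sets, trend and robust moderation, array weights, and values raised to background. Among the described lists, 3 totals moved by more than 1.5 times with values raised to background. These were histones (7 higher and 1 lower), p53 targets (1 and 8) and amino acid transporters (2 and 3). With the replicate block, 3172 genes were called for the interaction in place of 3086, and it changed no other count by over 1.5 times. At adjusted p under 0.01 the interaction had 1145 genes, 499 higher and 646 lower, and 1739 changed with OTX015 against DMSO, 622 for the combination against panobinostat and 4455 against OTX015. With 1 array left out, the interaction counts were 1631 to 2546, 761 to 1144 higher and 870 to 1402 lower. The range was 1885 to 3415 for OTX015 against DMSO, 566 to 2251 for the combination against panobinostat, 6603 to 8240 for panobinostat against DMSO, 4879 to 6824 for the combination against OTX015 and 7023 to 8063 for it against DMSO. With the background set at the highest olfactory receptor gene, 5.25, the called genes with 4 groups above it were 1553 in place of 2657. HEXIM1 changed sign, to -0.04, -0.01 and -0.11, without DMSO array 1, OTX015 array 2 or combination array 2, and its values with 1 array left out ran from -0.11 to 0.28, with no call. Of 165 named genes that were called, 118 stayed called with each array left out and 47 did not; 34 named genes were no longer called with values raised to background, and the cause was not tested. Some of these 34 genes had all 4 group means above background. Levels near 3.07 limit the genes called higher most.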

Other observations

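Gene groups with smaller shares than the lists described showed some one-sided counts. Splicing factors were called higher for 17 of 107 and lower for 2, and mitochondrial ribosomal proteins for 12 of 76 and 1, against 9.03% and 11.7% of all genes above background. With 1 array left out the higher counts were 3 to 9 and 5 to 9. Protocadherins, adhesion proteins of neurons, were called lower for 12 of 70 and higher for 2, although 14 of the 70 were above background in all groups, and 6 to 11 were called lower with 1 array left out. Autophagy genes, of which panobinostat alone raised 23 of 39 and the combination 25, were called lower for 3 and higher for 0. Their share called, 7.69%, was near the 7.42% of all genes called lower. It was under the 20.8% called among genes above background, so the count does not mark the group as departing from additivity. By gene type, 16.2% of 17645 protein-coding genes, 5.55% of 2234 long non-coding RNAs and 6.98% of 315 snoRNA genes were called, with 35.0%, 75.6% and 42.2% of them under background in some group.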
